A study of Homo sapiens with 8 samples.

Results

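The genes described here are 10 intermediate filament genes of the A549 line, namely 6 keratins (KRT7, KRT8, KRT18, KRT19, KRT80 and KRT81), vimentin (VIM) and the 3 lamins (LMNA, LMNB1 and LMNB2). They were found by matching the Ensembl identifiers of the count table to GENCODE 44 symbols, and they are 10 of 58302 genes. The set was selected on these same data, around a lower level of KRT19 in the libraries labelled siAPEX1, so the values of its members in that contrast are given as a description and no p-value is attached to them.

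Gene expression was profiled by RNA-seq in 8 libraries of A549, an established human lung adenocarcinoma cell line. The 4 libraries labelled siCTRL came from cells transfected with a scramble siRNA, and the 4 labelled siAPEX1 from cells transfected with an siRNA to APEX1, which encodes the DNA repair endonuclease APE1. Both groups were thus transfected, and no untransfected cells entered the comparison. The libraries were made from total RNA with a small RNA kit, changed to also capture longer precursors of miRNAs, and mRNAs such as those of the keratins were a minority of the counts. The study calls its replicates biological, while the labels do not say whether they were separate cultures, and p-values measure only the spread between these libraries.

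The depth was 1348386 to 1949886 gene counts a library, and every library labelled siAPEX1 was smaller than every library labelled siCTRL. The targeted gene went against its label. APEX1 had 47 to 64 counts in the libraries labelled siCTRL and 19470 to 27916 in those labelled siAPEX1 (log2 fold change 9.29, SE 0.127, edgeR adjusted p = 8.97e-42). From counts per gene, fragments of the siRNA itself and labels exchanged between the groups cannot be told apart. Every direction below is that of the libraries as labelled, and exchanged labels would turn all of them. Nuclear protein-coding genes other than APEX1 held 15.4% ± 0.296 (SD, n = 4) of the counts in siCTRL and 12.2% ± 0.323 in siAPEX1. With scaling on these genes alone, all 8 members that passed the filter on low counts stayed lower, KRT19 with a log2 fold change of -2.27 in place of -2.31. As regards the identity of the cells, all 9 genes listed for epithelium and A549 had counts, with sums per library of 2261 to 2804 in siCTRL and 1356 to 1601 in siAPEX1. Sums here are of raw counts, not scaled for depth, and this one includes the members KRT8 and KRT18. CDKN2A, which A549 lacks, had 0 counts, and both endothelial genes, PECAM1 and CDH5, were at 0. Among blood genes CD3E was at 0 and PTPRC had 1 count in all. CD14 had 6, 9, 6 and 5 counts in siCTRL and 2, 0, 0 and 1 in siAPEX1. The sum of these 3 genes was 5 to 9 counts in siCTRL and 0 to 3 in siAPEX1. The 4 fibroblast genes summed to 3 to 14 counts in siCTRL and 2 to 4 in siAPEX1. In bulk RNA of this kind, fewer cells of a type and less RNA per cell cannot be told apart.

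Intermediate filaments are rope-like polymers that give a cell its mechanical strength. Keratins, which mark epithelia, assemble only as pairs of an acidic type I and a basic type II chain, and KRT8 with KRT18 is the basic pair of simple epithelia such as that of the lung. Vimentin, a type III protein, forms filaments by itself and is typical of mesenchymal cells, although many carcinoma lines in culture hold both. Lamins line the inside of the nuclear envelope, the A-type from LMNA and the B-type from LMNB1 and LMNB2.

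To set the transcribed starts beside the counts, promoter windows were read from RefSeq (GRCh38.p14), each with 250 bases before and 50 after a start. Of the 10 members, 5 had a window there (KRT8, VIM, LMNA, LMNB1 and LMNB2), and KRT7, KRT18, KRT19, KRT80 and KRT81 had none. VIM and LMNA are shown because they passed the filter on low counts and their windows sit on the start of the gene as GENCODE gives it, VIM at chr10:17227991-17228290 and LMNA at chr1:156082323-156082622, both on the plus strand. Capitals mark matches to 4 motifs, searched on both strands. The GC box was read as GGGCGG. For the TATA box the letters were TATAAA. The CCAAT box is spelled by its name, and for the AP-1 site TGANTCA was used.
VIM: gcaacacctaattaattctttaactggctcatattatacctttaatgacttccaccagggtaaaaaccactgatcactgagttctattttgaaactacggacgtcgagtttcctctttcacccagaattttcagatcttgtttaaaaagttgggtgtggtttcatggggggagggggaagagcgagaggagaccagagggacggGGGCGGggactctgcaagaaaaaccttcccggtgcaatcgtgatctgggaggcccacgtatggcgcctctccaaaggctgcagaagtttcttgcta
LMNA: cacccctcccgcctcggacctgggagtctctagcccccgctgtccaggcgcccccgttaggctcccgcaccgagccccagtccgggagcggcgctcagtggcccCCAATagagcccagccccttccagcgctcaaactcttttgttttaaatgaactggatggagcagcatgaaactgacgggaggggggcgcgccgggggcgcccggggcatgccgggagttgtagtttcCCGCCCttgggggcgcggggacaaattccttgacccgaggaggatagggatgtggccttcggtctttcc
The VIM window held a GC box match from -46 to -41 relative to the start and none of the other motifs. The LMNA window held a GC box from -19 to -14 and a CCAAT box from -146 to -142, which do not overlap. Of 34943 RefSeq windows of the same length, 44.9% held the GC box, 34.6% the CCAAT box, 11.6% the TATA box and 7.72% the AP-1 letters, so these matches were common ones. The KRT8 window, at a start inside the span that GENCODE gives the gene, held none of the 4 motifs. A match is a run of letters and not a shown binding site.

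The 6 keratins of the set were lower in every library labelled siAPEX1 than in any labelled siCTRL, KRT19 by the widest margin, whereas VIM and LMNA were lower by much less. Of the 10 members, 8 passed the filter on low counts, and each of these had at least 10 counts in every library. With an adjusted p of at most 0.05 and a log2 fold change of 1 or more in either direction, 5 members were called lower (KRT7, KRT8, KRT18, KRT19 and KRT80) and 0 higher, where 5.68% of all 5368 genes tested were lower and 3.60% higher by the same rule. Without the limit on fold change all 8 passed as lower, beside 15.8% of all genes lower and 15.9% higher. Libraries did not overlap between the groups for 7 of the 8, against 14.9% of all genes lower without overlap. The members were chosen in this contrast, so nothing is read from these counts. Without siAPEX1 replicate 4 the count was 3, KRT8 and KRT80 falling short of the fold change, and KRT8 also fell short without siCTRL replicate 1, siCTRL replicate 4 or siAPEX1 replicate 2, which left 4. The limit fell between KRT8, just inside with a log2 fold change of -1.02, and KRT81, just outside with -0.90.

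Among the type I chains, KRT19 is the smallest keratin and lacks most of the tail domain of the others. KRT19 (ENSG00000171345, chr17:41523617-41528308, minus strand) had 162, 169, 163 and 141 counts in siCTRL replicates 1 to 4 and 22, 20, 21 and 18 in siAPEX1 replicates 1 to 4. Each siAPEX1 library lay far under the lowest siCTRL library and within each group the values were close. In CPM (counts scaled with TMM factors to a common library size) the level was 79.2 ± 2.99 (SD, n = 4) in siCTRL and 16.0 ± 1.65 in siAPEX1, a log2 fold change of -2.31 (SE 0.144), or 4.96-fold lower. Only 10 of the 5368 genes tested were placed below it by log2 fold change, KRT19 being number 11 from the lowest. This place moved with the libraries and genes used. It was 11 to 14 without a siCTRL library and 20 to 24 without a siAPEX1 library. With all genes of at least 1 count it was 615 of 22272, and with at least 10 counts in every library 2 of 3147.

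KRT18, the type I partner of KRT8, is the other acidic chain. KRT18 (ENSG00000111057, chr12:52948871-52952906, plus strand) had 621, 587, 562 and 412 counts in siCTRL and 146, 135, 154 and 102 in siAPEX1. Replicate 4 was the lowest of its group on either side, and the groups stood well apart. The CPM were 271 ± 35.8 and 105.5 ± 17.0, with a log2 fold change of -1.36 (SE 0.111), and 2.55% of the genes tested had a lower one. KRT19 was thus lower by more than its fellow type I chain, which the counts within each library show without any scaling. The log2 ratio of KRT19 to KRT18 was -1.77 ± 0.162 in siCTRL and -2.72 ± 0.155 in siAPEX1, with no overlap.

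Of the type II chains, KRT7 is the usual marker of glandular and simple epithelia including lung adenocarcinoma. KRT7 (ENSG00000135480, chr12:52232520-52252186, plus strand) had 433, 354, 395 and 322 counts in siCTRL and 113, 106, 93 and 100 in siAPEX1. The CPM were 188 ± 20.6 and 81.4 ± 11.1 (log2 fold change -1.21, SE 0.109), and the groups were far apart. KRT8 (ENSG00000170421, chr12:52897187-52949954, minus strand), the partner of KRT18, had 127, 116, 120 and 117 counts in siCTRL and 39, 31, 50 and 31 in siAPEX1. Its CPM were 60.1 ± 4.88 and 29.5 ± 5.55 (log2 fold change -1.02, SE 0.138). No library of KRT8 overlapped, siAPEX1 replicate 3 being the highest of its group.

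KRT80, a type II keratin tied to cell junctions and to later stages of differentiation, was the least abundant keratin of the set. KRT80 (ENSG00000167767, chr12:52168996-52192014, minus strand) had 50, 50, 56 and 34 counts in siCTRL and 18, 13, 14 and 10 in siAPEX1. The CPM were 23.5 ± 3.22 and 10.9 ± 2.88 (log2 fold change -1.13), and the SE of 0.210 was the widest of the 8 members that passed the filter. KRT81, by name a hair keratin, is also seen in carcinoma lines and was here the most abundant member. KRT81 (ENSG00000205426, chr12:52285913-52291534, minus strand) had 659, 599, 601 and 505 counts in siCTRL and 197, 186, 225 and 198 in siAPEX1. Its CPM were 295 ± 24.9 and 158 ± 5.33 (log2 fold change -0.90, SE 0.0941), the narrowest difference among these 6 keratins, yet without overlap.

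**Figure D1:**
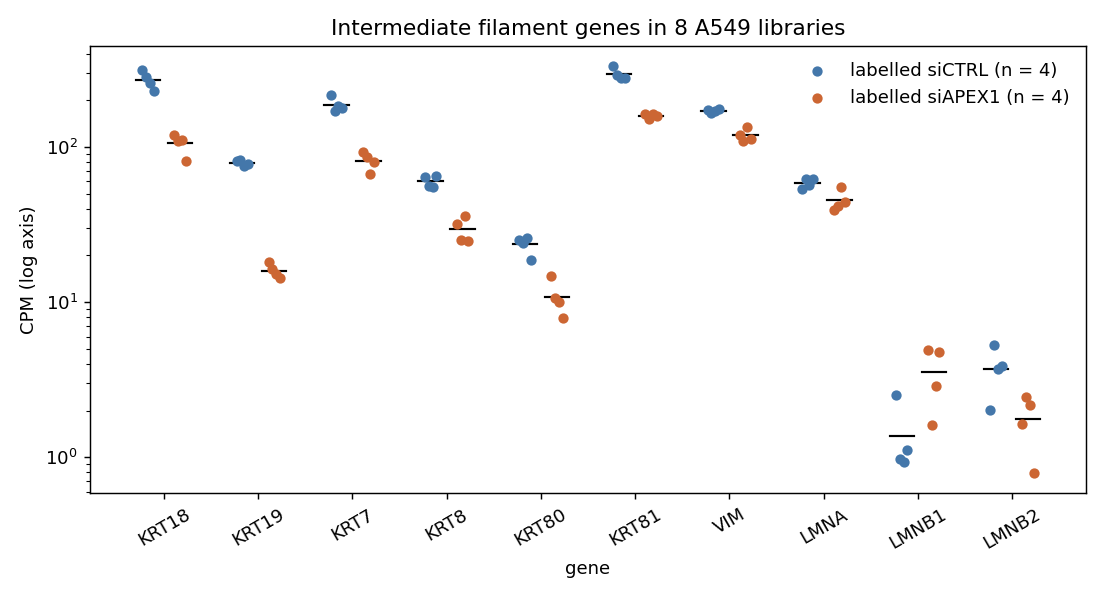
CPM of the 10 genes on a log axis, each point being a library, blue for siCTRL and orange for siAPEX1 (n = 4 each), with black bars at the group means. The groups are separate for the 6 keratins and VIM and overlap for the 3 lamins, and KRT19 shows the widest gap, from a mean of 79.2 to 16.0 CPM.

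VIM, the filament protein of mesenchymal cells, was lower to a smaller extent than any of these 6 keratins. VIM (ENSG00000026025, chr10:17228241-17237593, plus strand) had 344, 341, 367 and 316 counts in siCTRL and 146, 134, 187 and 141 in siAPEX1. The CPM were 171 ± 4.24 and 119 ± 11.6 (log2 fold change -0.52, SE 0.0976). Groups did not overlap, although 17.4% of the genes tested had a lower log2 fold change. LMNA (ENSG00000160789, chr1:156082573-156140081, plus strand), which encodes lamins A and C, had 106, 129, 122 and 113 counts in siCTRL and 48, 51, 77 and 56 in siAPEX1. After scaling, siAPEX1 replicate 3, at 55.5 CPM, was above siCTRL replicate 1, at 53.3 CPM, so the groups overlapped. The means were 58.7 ± 4.58 and 45.2 ± 7.15 CPM (log2 fold change -0.37, SE 0.127).

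The B-type lamins, LMNB1 and LMNB2, did not pass the filter. LMNB1 (chr5:126776623-126837020, plus strand) had 5, 2, 2 and 2 counts in siCTRL and 6, 2, 4 and 6 in siAPEX1, a ratio of the depth-scaled totals of 2.58 (95% exact counting interval 1.15 to 6.04). LMNB2 (chr19:2427638-2456959, minus strand) had 4, 11, 8 and 7 counts in siCTRL and 2, 3, 3 and 1 in siAPEX1, a ratio of 0.472 (0.197 to 1.02). The libraries of both genes overlapped between the groups. At a depth of 11 and 18 counts for LMNB1 and 30 and 9 for LMNB2 in all, these intervals, which cover counting error only, are wide.

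Taking the 8 members that passed, the median log2 fold change was -1.07, and it was -1.17 over the 6 keratins, beside a median of -0.0035 over all 5368 genes and -0.03 over the 4857 nuclear protein-coding genes. KRT7 had 3.63% of the genes tested below it, KRT80 4.23%, KRT8 5.55% and KRT81 7.36%, whereas LMNA had 24.7% below it.

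**Figure D2:**
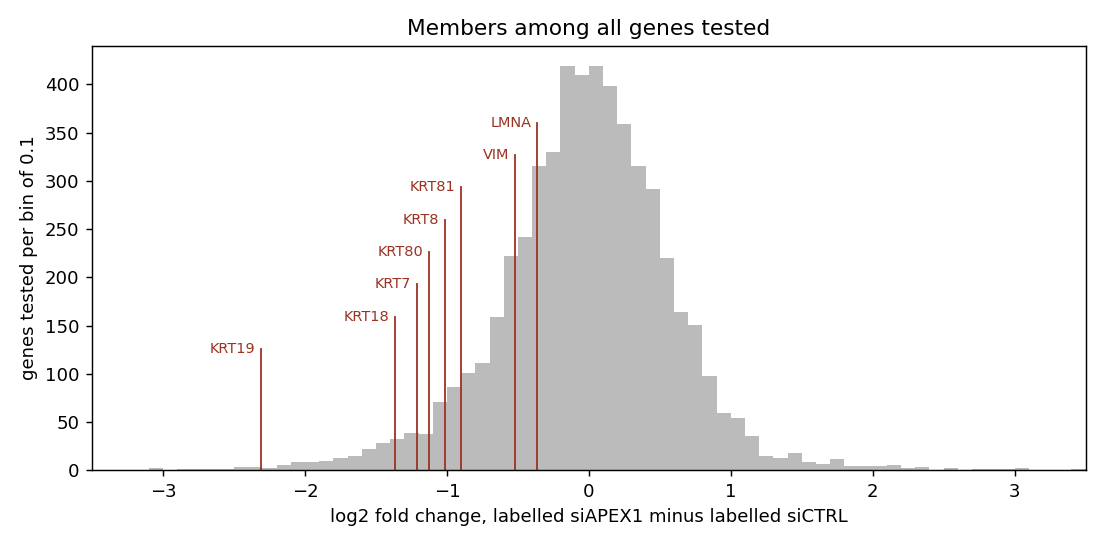
Number of genes tested per bin of 0.1 in log2 fold change (x axis, siAPEX1 minus siCTRL as labelled), in grey, with red lines at the 8 members that passed the filter, the height of a line carrying no value and 1 gene beyond the axis, APEX1, counted in the last bin. KRT19, at -2.31, lies in the far left tail, the other 5 keratins lie between -1.36 and -0.90, and VIM and LMNA lie inside the left flank of the bulk.

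Levels of different genes were compared per length, as CPM per kb of merged exon. In siCTRL the order was KRT81 (153 ± 12.9), KRT18 (88.4 ± 11.7), KRT7 (46.9 ± 5.16), KRT19 (33.9 ± 1.28), VIM (33.0 ± 0.819), KRT8 (8.73 ± 0.709), LMNA (7.21 ± 0.562), KRT80 (5.39 ± 0.738), LMNB2 (0.691 ± 0.252) and LMNB1 (0.380 ± 0.209). KRT19 and VIM did not differ beyond their spread there, nor did LMNB2 and LMNB1, while all other neighbours were apart in every library. In siAPEX1 the order became KRT81 (82.0 ± 2.77), KRT18 (34.4 ± 5.53), VIM (23.0 ± 2.25), KRT7 (20.4 ± 2.77), KRT19 (6.83 ± 0.706), LMNA (5.56 ± 0.879), KRT8 (4.29 ± 0.806), KRT80 (2.49 ± 0.660), LMNB1 (0.978 ± 0.437) and LMNB2 (0.326 ± 0.134). VIM moved above KRT7 and KRT19, although its libraries overlapped those of KRT7, and those of LMNA overlapped both KRT19 and KRT8. KRT8 was already below its partner KRT18 in CPM (60.1 and 271 in siCTRL), and a merged exon length of 6881 bases against 3069 widened the gap per kb.

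The balance between the keratins was then examined as log2 ratios of raw counts within each library, which no scaling factor can move. Relative to KRT8, KRT19 passed from 0.40 ± 0.118 in siCTRL to -0.87 ± 0.265 in siAPEX1, that is from more counts than KRT8 to fewer. Relative to KRT7 it passed from -1.24 ± 0.148 to -2.35 ± 0.141. For both pairs, the groups did not overlap. The classical pair moved together more closely. The ratio of KRT18 to KRT8 was 2.17 ± 0.239 in siCTRL and 1.84 ± 0.221 in siAPEX1, with overlap, as was the case for KRT7 to KRT8 (1.64 ± 0.137 and 1.47 ± 0.398) and for KRT80 to KRT18 (-3.53 ± 0.138 and -3.30 ± 0.193). KRT81 gained on KRT18, from 0.13 ± 0.115 to 0.60 ± 0.243, without overlap.

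In all, the 6 keratins had 1531 to 2052 counts per library in siCTRL and 459 to 557 in siAPEX1. This was 0.101% ± 0.00936 of all counts in siCTRL and 0.0350% ± 0.00341 in siAPEX1. Taken against nuclear protein-coding counts without APEX1, whose own share was also lower, it was 0.654% ± 0.0540 and 0.286% ± 0.0205. The share of KRT19 in the keratin counts was 8.68% ± 0.582 in siCTRL and 3.97% ± 0.156 in siAPEX1, with no overlap. KRT81 rose in share from 32.2% ± 0.564 to 39.6% ± 2.82, again without overlap, whereas the shares of KRT7 (20.5% and 20.3%), KRT8 (6.59% and 7.33%), KRT18 (29.5% and 26.2%) and KRT80 (2.57% and 2.68%) overlapped.

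Against vimentin, these keratins were lower as well. The log2 ratio of KRT18 to VIM was 0.66 ± 0.209 in siCTRL and -0.18 ± 0.232 in siAPEX1, and that of KRT19 to VIM -1.11 ± 0.0745 and -2.90 ± 0.202, both without overlap. The ratio of KRT8 to VIM was -1.51 ± 0.0890 and -2.03 ± 0.145, and that of all 6 keratins to VIM 2.42 ± 0.128 and 1.76 ± 0.145, also without overlap. VIM and LMNA kept close to each other, with ratios of 1.54 ± 0.129 and 1.40 ± 0.143 that overlapped.

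**Figure D3:**
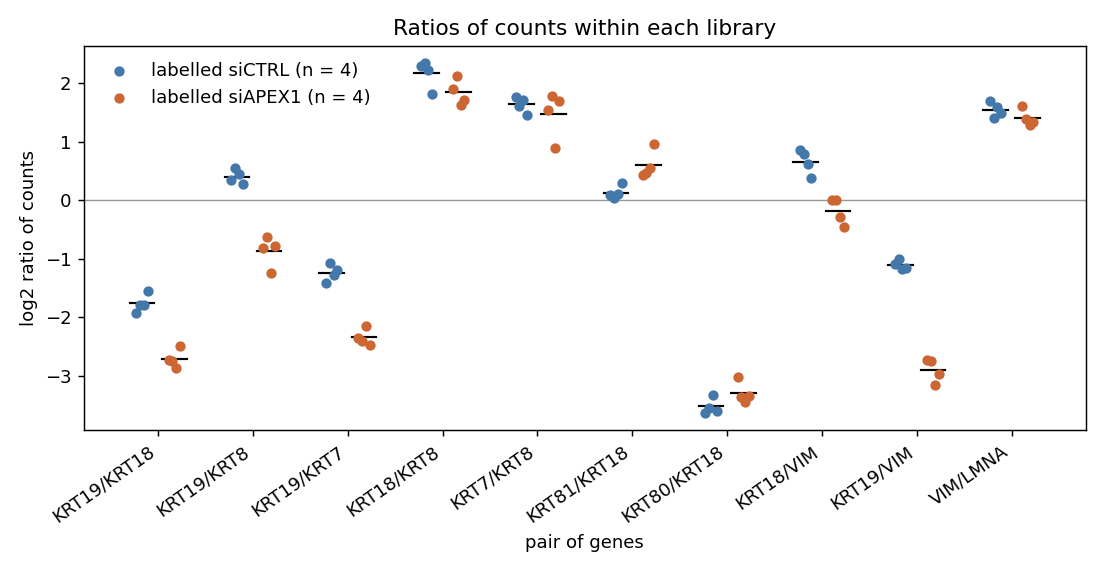
Log2 ratios of raw counts of gene pairs (x axis) within each library, blue for siCTRL and orange for siAPEX1 (n = 4 each), with black bars at the group means. Ratios with KRT19 on top are all lower in siAPEX1 without overlap, KRT81 to KRT18 is higher (0.13 and 0.60), and KRT18 to KRT8, KRT7 to KRT8, KRT80 to KRT18 and VIM to LMNA overlap.

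Genes that overlap the members, or are pseudogenes of them, held few counts. Of 123 annotated pseudogenes of the members, 14 had any count, 16 counts in all and never more than 1 in a library. Antisense genes, 2 in number, had 6 counts in all, and 5 other overlapping genes had 15, with at most 4 in a library. That maximum was in KRT86, which lies over KRT81 and is nearly identical to it in sequence. KRT81, KRT86 and KRT83 are close copies, so the count of each is uncertain where the counting dropped reads that match several of them. KRT8 and KRT18 overlap in GENCODE on opposite strands, and which strand was counted is not given in the sources used here.

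To see which genes varied as KRT19 did, Pearson's r with its log2 CPM was computed over the 8 libraries for every gene tested. These libraries form 2 groups, so r mostly orders genes by how cleanly they separate them, and it is given without a p-value. The 5 highest were FN1, encoding fibronectin (r = 0.995, log2 fold change -1.87), the lysosomal sulfatase IDS (0.994, -1.09), the protease PRSS23 (0.992, -0.90), the magnesium transporter and oligosaccharyltransferase subunit MAGT1 (0.992, -1.63) and the calcium-binding NUCB2 (0.992, -1.32). Among the members KRT81 was at place 11 (0.986), KRT7 at 34 (0.977), KRT18 at 39 (0.976), KRT8 at 128 (0.950), VIM at 141 (0.945), KRT80 at 181 (0.935) and LMNA at 786 (0.763).

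The other cytoplasmic intermediate filament genes were mostly at or near 0 counts. Of 60 such genes, 44 had no count in any library and 53 had at most 3 in every library, and 2 passed the filter. Neither passed the test by edgeR at an adjusted p of 0.05, nor did either at an unadjusted p of 0.05 or by DESeq2. KRT10, the type I keratin of the upper epidermis, had 56, 48, 68 and 54 counts in siCTRL and 33, 33, 39 and 32 in siAPEX1 (28.2 ± 3.58 and 26.9 ± 1.12 CPM, log2 fold change -0.07, SE 0.156, edgeR adjusted p = 0.784). SYNM, encoding synemin, had a log2 fold change of -0.41 (edgeR adjusted p = 0.415). KRT10 is therefore a keratin with overlapping groups, and the log2 ratio of KRT18 to KRT10 was 3.27 ± 0.328 in siCTRL and 1.96 ± 0.202 in siAPEX1, without overlap. A further 2 genes, named after their values were seen, had too few counts for the filter. INA, encoding the neuronal filament protein internexin, had 6, 9, 9 and 13 counts in siCTRL and 2, 1, 1 and 4 in siAPEX1. The ratio of its depth-scaled totals was 0.340 (exact counting interval 0.137 to 0.743). In CPM its groups overlapped, with siCTRL replicate 1 at 3.02 and siAPEX1 replicate 4 at 3.18. BFSP1, a filament protein of the eye lens, had 6, 7, 7 and 10 and then 12, 7, 11 and 12 counts, a ratio of 2.20 (1.35 to 3.65).

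Next came genes whose products link keratins to desmosomes, to other filaments or to chaperones. Of 16 such genes 6 passed the filter (median log2 fold change 0.19), and 1 passed the test, in the direction of higher. That is near the 15.9% of all genes tested that were higher by the same adjusted p, beside 15.8% lower. PKP4, a plakophilin of cell junctions, was higher in siAPEX1 by a log2 fold change of 0.70 (SE 0.258, edgeR adjusted p = 0.0341), at 7.04 ± 1.25 and 11.3 ± 1.12 CPM, a call lost without the TMM factors (adjusted p = 0.278) and by DESeq2 (0.140). It was also lost when siCTRL replicate 1, 2 or 3 or siAPEX1 replicate 3 or 4 was left out (edgeR adjusted p of 0.0782, 0.0634, 0.0717, 0.102 and 0.0520). DSP, encoding desmoplakin, which anchors keratins at desmosomes, had a log2 fold change of -0.18, and PLEC, encoding the crosslinker plectin, 0.21, and neither passed. DST, MACF1 and DNAJB6 had 0.16, -0.10 and 0.43, none past the test. EVPL, encoding envoplakin, named after its values were seen, had 10, 8, 13 and 4 counts in siCTRL and 1, 0, 1 and 0 in siAPEX1, a ratio of 0.0900 (exact counting interval 0.0105 to 0.350).

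Partners of the lamins and enzymes of prelamin processing gave calls of higher genes, to which a looser filter added lower ones. Of 22 genes 13 passed the filter (median log2 fold change 0.39), and 4 passed the edgeR test, all higher. Over all genes tested, 15.9% were higher and 15.8% lower by the same adjusted p. LBR, the lamin B receptor of the inner nuclear membrane, had 9, 8, 18 and 13 counts in siCTRL and 21, 14, 25 and 17 in siAPEX1. In CPM this was 5.98 ± 2.13 and 15.1 ± 3.15, without overlap (log2 fold change 1.33, SE 0.266, edgeR adjusted p = 0.000117). The others were TOR1AIP2 (0.65, edgeR adjusted p = 0.0101), SYNE2, which ties the nucleus to the cytoskeleton (0.59, adjusted p = 0.0035), and its partner SUN1 (0.53, adjusted p = 0.0296). No gene was lower at an unadjusted p of 0.05, where 6 were higher, and DESeq2 called 3 higher and 0 lower. Raw counts of all 4 genes, LBR included, overlapped between the groups, and those of TOR1AIP2 overlapped in CPM too. Without the TMM factors the edgeR adjusted p of TOR1AIP2, SYNE2 and SUN1 was 0.209, 0.214 and 0.456. SUN1 was also lost when siCTRL replicate 1 or 4 or siAPEX1 replicate 1 or 4 was left out (edgeR adjusted p of 0.0542, 0.0747, 0.0635 and 0.0567). ICMT, a methyltransferase of prelamin processing, had 13, 12, 13 and 5 counts in siCTRL and 2, 0, 0 and 1 in siAPEX1. Its ratio was 0.110 (exact counting interval 0.0218 to 0.343). TOR1A had 9, 13, 13 and 7 and then 4, 2, 2 and 2, a ratio of 0.375 (0.168 to 0.759). Both were under the filter, which asks for enough counts in at least 4 libraries of either label. The siCTRL libraries alone fell short of it, with 5 counts of ICMT in replicate 4, and 9 and 7 of TOR1A in replicates 1 and 4. Both genes were named after their values were seen. When the filter kept every gene with a count, ICMT and TOR1A were called lower by edgeR (log2 fold change -3.12, adjusted p = 2.73e-05, and -1.47, adjusted p = 0.0284). With the limit of 1 on the fold change, LBR was the 1 gene called higher, as it was in the main fit. By edgeR adjusted p alone SYNE2 (0.0343) and TOR1AIP2 (0.0446) also stayed higher there, and SUN1 (0.21) did not pass.

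Finally, regulators of the epithelial to mesenchymal transition and the cadherins were read beside the keratins and VIM. Of 8 genes 4 passed the filter and 1 passed the test, where 15.9% of all genes tested were higher and 15.8% lower by the same adjusted p. CDH1, encoding E-cadherin, the adhesion protein of epithelia, had 27, 26, 27 and 23 counts in siCTRL and 28, 38, 36 and 22 in siAPEX1. Raw counts overlapped, and in CPM the groups were apart, at 12.9 ± 0.491 and 24.3 ± 5.59 (log2 fold change 0.92, SE 0.194, edgeR adjusted p = 0.000245). CDH1 thus rose in the libraries where the 6 keratins were lower. CDH2, encoding N-cadherin, had a log2 fold change of -0.18, ZEB1 of -0.32 (edgeR adjusted p = 0.434) and TWIST2 of -0.19, and none of these passed.

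**Figure D4:**
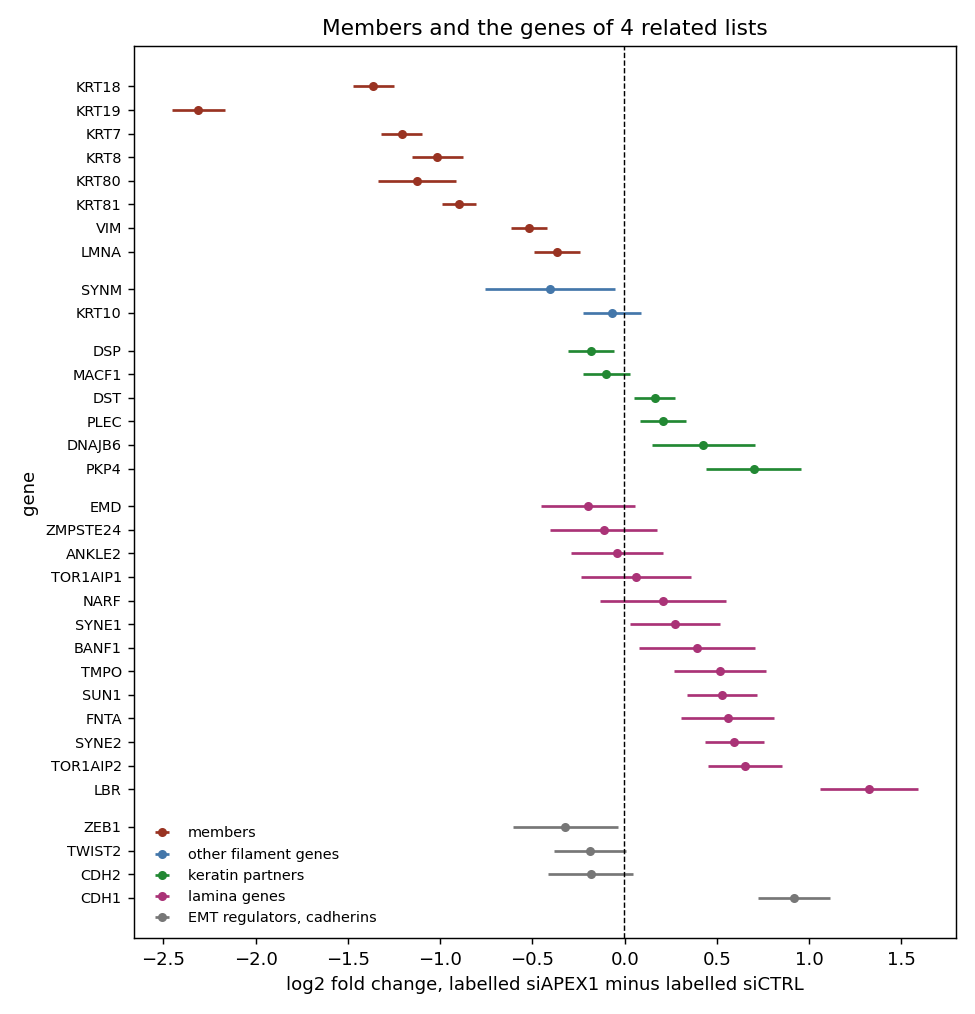
Log2 fold changes (siAPEX1 minus siCTRL as labelled) with SE bars for the 8 members and the tested genes of 4 related lists, in colours by list, with a dashed line at the median of all genes tested (-0.0035). Members lie left of the line, from KRT19 at -2.31 to LMNA at -0.37, while LBR (1.33), CDH1 (0.92) and PKP4 (0.70) lie to the right.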

How the data were processed

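RNA was sequenced from 8 A549 libraries, 4 labelled siCTRL and 4 labelled siAPEX1. According to the study's methods and processing notes, the authors demultiplexed with CASAVA, trimmed adapters and poly-A tails (cutadapt), mapped to GRCh38 using STAR 2.5.3a and deposited whole-number counts per Ensembl gene, without normalization. The release of the annotation and the strand counted are not given in the sources used here. Identifiers were matched to GENCODE 44 (57532 of 58302 genes).

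The counts were tested with edgeR 4.0.16 in R 4.3.3 (TMM factors, quasi-likelihood test, Benjamini-Hochberg adjustment over 5368 genes kept by filterByExpr at its settings of 10 for the count and 15 for the total). TMM factors were 1.10 to 1.14 for siCTRL and 0.873 to 0.919 for siAPEX1. The SE is the log2 fold change divided by the root of F. A prior count of 2 was used for log2 CPM, and counts of at most 3 were taken as the floor. Intervals of count ratios are exact binomial intervals on group totals. The code was tested on simulated data. Alternatives were other scalings, DESeq2 1.42.0, other filters and thresholds, a replicate block and leaving out each library.

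Members and gene lists were chosen with earlier results of these data known. Genes are named as follows: every member, in each list the genes passing an adjusted p of 0.05 (up to 8), the 5 genes most like KRT19, APEX1, and overlapping genes or pseudogenes with over 3 counts in a library. Others are named as added after their values were seen, or as members of a list that did not pass.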

Additional observations from a re-analysis of the deposited data

Results flagged for a closer look

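In LMNB1, siCTRL replicate 1 lay apart from its group, at 2.51 CPM (5 counts) where the other 3 libraries, with 2 counts each, lay between 0.927 and 1.11 CPM. It was the single such case in 20 groups of 4 libraries, and chance alone gives about 1 in 20. At these counts the gap is 3 reads.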

How the results depend on the processing

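All 8 members that passed the filter were lower in siAPEX1 under every alternative. The count of 5 members called was 8 with no threshold on the fold change and 3 to 5 when leaving out a library. It was 3 without siAPEX1 replicate 4, which left KRT7, KRT18 and KRT19. With library size only it was 6 (KRT81 added), and with scaling on nuclear protein-coding genes it was 4 (KRT8 lost). The log2 fold change of KRT19 was -2.35 to -2.24 when leaving out a library and -2.65 with library size only, where the median of all genes moved to -0.34 and KRT19 lay -2.31 from it. Over all genes, 498 were called (305 lower, 193 higher), 943 with all genes of at least 1 count, 181 with at least 10 counts in every library, 935 at a threshold of 0.75, 1703 with none, and 528 to 603 when leaving out a library. With library size only 655 were lower and 84 higher, so 11.4% of calls were higher in place of 38.8%.

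In the lists, the 0 called among other filament genes became 2 with all genes of at least 1 count (INA lower, BFSP1 higher) and 1 to 1 when leaving out a library (BFSP1). Among keratin partners 0 became 1 with all genes of at least 1 count (EVPL, lower) and 1 with no threshold (PKP4). The 1 lamina gene called (LBR) became 0 with library size only and 0 with at least 10 counts in every library, where LBR was not tested, 3 with all genes of at least 1 count (LBR, ICMT and TOR1A), 4 with no threshold, and 1 to 2 when leaving out a library (ICMT added). Among cadherins and regulators 0 became 1 at a threshold of 0.75, 1 with none, and 0 to 1 when leaving out a library (1 without siAPEX1 replicate 4), each time CDH1. With a library left out, the filter kept more genes (5528 to 5927, beside 5368). BFSP1 and ICMT, not tested in the main fit, were thus newly tested where they were called. By adjusted p, PKP4 was lost in 9 and SUN1 in 8 of 16 alternatives. LBR and CDH1 passed in each that tested them (largest adjusted p 0.00227 and 0.0146). Where not stated, the cause was not tested.

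Replicate numbers did not pair the libraries (correlations of same-numbered deviations -0.037 to -0.0035, other numbers -0.040 to 0.036, and none was best with its own number). With the replicate block, 5 members and 494 genes were called and the log2 fold change of KRT19 was -2.31. Depth limits LMNB1 and LMNB2, and every library labelled siAPEX1 was smaller than every other, so size and label cannot be told apart.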

Other observations

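EPCAM and SNAI1 were low-count genes named after their values were seen. They are not read as a direction of epithelial identity, since CDH1 (log2 fold change 0.92, edgeR adjusted p = 0.000245) was higher, and ZEB1 (-0.32) and CDH2 (-0.18) did not pass the test. EPCAM, an adhesion protein of epithelia, had 9, 8, 8 and 9 counts in siCTRL and 1, 0, 4 and 5 in siAPEX1, a ratio of depth-scaled totals of 0.463 (95% exact counting interval 0.204 to 0.959). SNAI1, a repressor of E-cadherin, had 5, 6, 3 and 1 and then 5, 4, 9 and 5 counts, a ratio of 2.41 (1.21 to 4.98). Neither passed the filter on low counts.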
